A study of Rattus norvegicus with 18 samples.

Results

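Immediate early transcription factors are the regulators whose genes a cell switches on within minutes of a stimulus, without first making new protein. The set described here was named as Nr4a3, Nr4a1, Nr4a2, Fos, Fosl1, Jun, Junb, Egr1, Atf3 and Btg2, and its members were found as all probe sets whose platform annotation gave exactly 1 gene symbol and that symbol was one of the 10. That rule found 9 of 10969 genes with 24 of 26202 probe sets, and Btg2 had none and was skipped. The genes had been chosen on strain differences measured on these same arrays, so their congenic against Dahl S values are given as a description, with no test.

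Total RNA of whole kidney came from 3 samples of a congenic rat and 3 samples of the Dahl salt-sensitive (S) rat, and each sample had been hybridised to 3 array types, here called A, B and C. The Dahl S rat is an inbred model of salt-sensitive hypertension, and the congenic, whose strain name gives chromosome 9 and the code 3A, is by strain naming a Dahl S rat that carries a segment of that chromosome from the salt-resistant Dahl rat. The labels state that the congenic segment holds a blood pressure locus. By strain naming both strains share the rest of the Dahl S background, which was not checked here. Ages, diets and whether each sample was a single animal are not stated in the labels used here, so a p-value reflects no more than how these particular samples vary, and that variation can be technical. None of the 9 members on the arrays lies on chromosome 9 in the RefSeq GRCr8 gene table. Values are in the arbitrary signal units of the deposited arrays, differences are congenic minus Dahl S on the log2 scale, and a signal of 1 probe set cannot be set against that of another.

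Growth factors, calcium, cyclic AMP and cell stress reach these genes through kinases that act on factors already bound at their promoters, chiefly SRF with its ETS partners at CArG boxes and CREB at cyclic AMP response elements. The products are short-lived proteins: NR4A orphan nuclear receptors, FOS and JUN proteins that pair into AP-1, the zinc finger protein EGR1 and the stress-induced factor ATF3. In kidney, FOS, JUN and EGR1 are known for a fast transient response to ischemia, and AP-1 has been studied downstream of angiotensin II.

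RefSeq promoter windows of GRCr8, from 250 bases before to 50 bases after the start site, were available for 6 of the 10 members: Nr4a1, Nr4a2, Fosl1, Junb, Egr1 and Btg2. Windows of 4 are printed 5′ to 3′ on the gene's strand, with matches in capitals. Egr1, Nr4a1 and Junb are shown because they include probe sets that stood highest in Dahl S sample 1, and Nr4a2 because its probe sets did not. Fos, which also stood highest there, has no window. Any link between matches and sample values was not tested. The windows are Egr1 at chr18:26736828-26737127 on the plus strand, Nr4a1 at chr7:134259888-134260187 on the plus strand, Junb at chr19:40080876-40081175 on the plus strand and Nr4a2 at chr3:62104838-62105137 on the minus strand.
Egr1: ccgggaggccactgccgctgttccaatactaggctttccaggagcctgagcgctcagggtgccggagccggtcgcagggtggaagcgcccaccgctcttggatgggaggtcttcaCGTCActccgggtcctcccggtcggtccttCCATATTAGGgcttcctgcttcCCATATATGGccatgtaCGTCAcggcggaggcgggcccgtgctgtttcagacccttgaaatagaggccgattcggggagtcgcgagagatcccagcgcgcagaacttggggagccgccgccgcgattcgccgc
Nr4a1: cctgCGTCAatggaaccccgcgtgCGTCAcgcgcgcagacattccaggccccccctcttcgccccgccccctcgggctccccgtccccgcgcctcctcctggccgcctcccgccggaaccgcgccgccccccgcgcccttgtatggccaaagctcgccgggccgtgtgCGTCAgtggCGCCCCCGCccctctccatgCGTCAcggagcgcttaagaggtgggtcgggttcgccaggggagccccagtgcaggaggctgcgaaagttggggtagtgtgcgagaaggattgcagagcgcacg
Junb: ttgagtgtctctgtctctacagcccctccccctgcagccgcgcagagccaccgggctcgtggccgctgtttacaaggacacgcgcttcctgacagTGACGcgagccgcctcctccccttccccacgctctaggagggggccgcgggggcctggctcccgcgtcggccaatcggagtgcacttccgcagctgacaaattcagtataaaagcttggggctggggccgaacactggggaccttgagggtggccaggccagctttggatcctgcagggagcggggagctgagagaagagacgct
Nr4a2: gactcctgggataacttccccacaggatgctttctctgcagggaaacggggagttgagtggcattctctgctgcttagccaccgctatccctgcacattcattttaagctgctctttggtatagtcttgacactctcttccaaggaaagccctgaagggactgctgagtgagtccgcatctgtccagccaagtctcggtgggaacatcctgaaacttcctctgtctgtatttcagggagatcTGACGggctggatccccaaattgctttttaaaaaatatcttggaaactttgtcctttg

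Both strands were searched for the CArG box, the cyclic AMP response element TGACGTCA, its core TGACG, the AP-1 site TGANTCA, the EGR site GCGNGGGCG and the NR4A site AAAGGTCA. Each full TGACGTCA also counts as 2 overlapping cores. Egr1 held 2 CArG boxes, which began 105 and 83 bases before the start, and 1.64% of all 33469 windows held such a box. The core was found in all 6 windows and in 21.2% of all windows. Egr1 had 2 cores (135 and 66 bases before the start), Nr4a1 had 4 (246, 226, 82 and 53), Junb had 1 (155), Nr4a2 had 1 (8) and Fosl1 had 2 (148 and 84). The EGR site was found once in Nr4a1, 73 bases before the start, and once in Btg2, 166 bases before the start, against 4.98% of all windows. Btg2 alone held the full TGACGTCA, 201 bases before the start, which 1.83% of all windows held. No member window held the AP-1 site (7.33% of all windows) or the NR4A site (1.43%). These matches describe letters in the windows and not sites in use.

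Across the arrays, limma called 0 of 15721 probe sets after adjustment over all of them (0%), and 391 had an unadjusted p under 0.05 (2.49%). Median signals per array lay between 34.85 and 46 for type A. Those of type B spanned 60.35 to 78.5 and those of type C 61.15 to 75.6. On each type the samples numbered 1 had the highest medians. Congenic and Dahl S sample 1 had 46 and 45.5 on type A, 78.3 and 78.5 on B, 75.6 and 74.7 on C. The other samples reached at most 39.45, 71.8 and 62.7 on these types. The log2 ratio of the 3′ to the 5′ beta-actin control signal was 0.22 to 0.68 on the arrays of the samples numbered 1, one in each strain, and 1.03 to 1.41 on those of the other samples, so the samples numbered 1 stood apart in this measure of RNA quality. All 12 kidney marker genes on the arrays lay above the filter on dim probe sets, as did 3 of 7 adrenal genes (Fdx1, Pnmt and Cyp21a1), while Cyp11a1, Cyp11b2, Cyp17a1 and Dbh lay below it.

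Of the 24 member probe sets, 18 lay above the filter, the 40th percentile of mean log2 signal of the array type, and they belonged to 8 genes. Fosl1 did not pass. Among the 18, 13 were lower and 5 higher in congenic kidneys (72.2% lower, with Atf3 among them at a difference that rounds to 0), against 50.5% lower among all probe sets. The strains did not overlap in 2 of the 18, or 11.1%, 1 higher and 1 lower in congenic, against 7.08% of all probe sets. Nr4a3 X86003_at had a Dahl S geometric mean of 12.56 units and Jun rc_AA944014_at a congenic one of 13.32 units. Both means lay below the type A filter level of 21.2 units. These 2 probe sets thus entered the 18 only through the strain where they were higher. In 10 of the 18 the difference was no larger than its own standard error, and the standard errors ran from 0.23 to 0.69. With 1 probe set per gene, that of highest mean signal, 7 members were lower and 1 higher in congenic kidneys (median -0.28), against 51.1% of 8168 genes lower (median -0.01). As the members were chosen on this contrast, nothing is read from these shares.

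**Figure D1:**
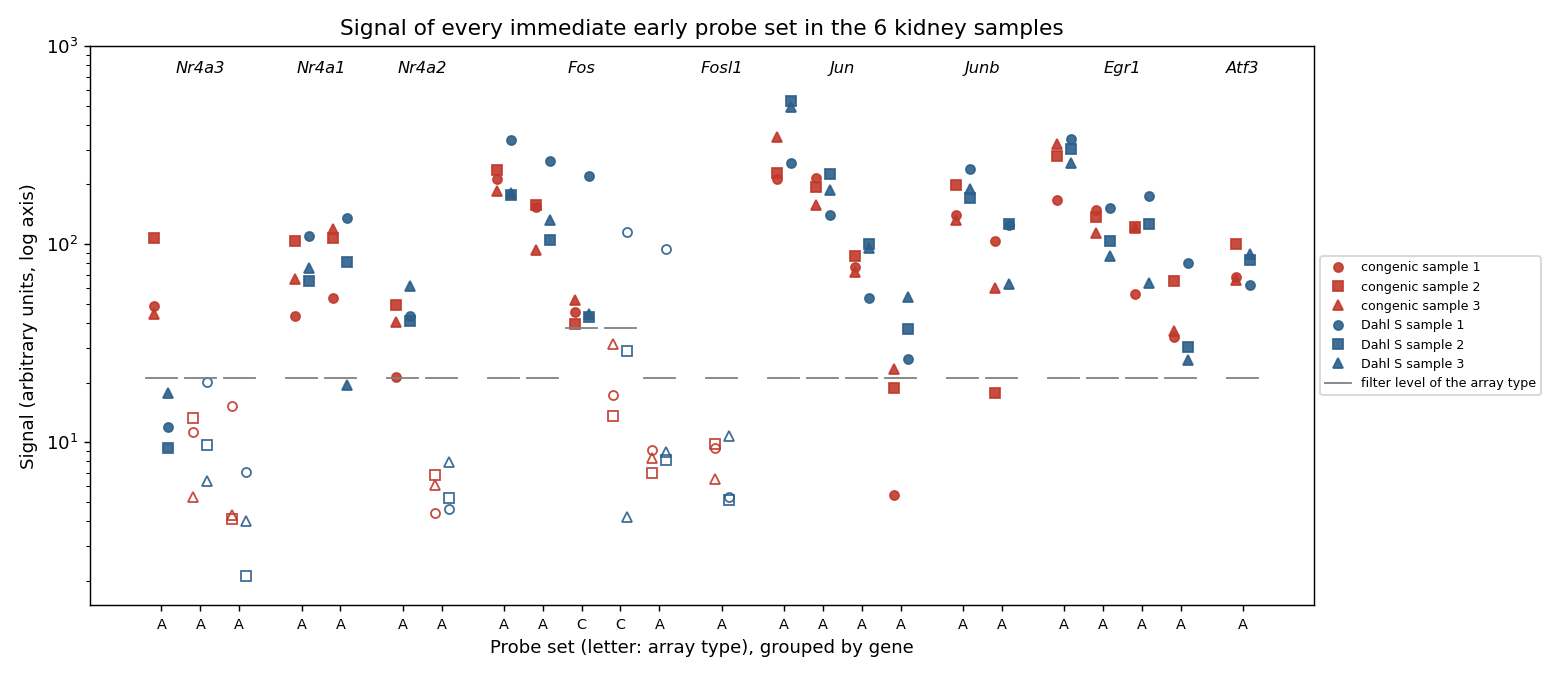
Signal (arbitrary units, log axis) of all 24 member probe sets, grouped by gene, with congenic samples in red left of Dahl S samples in blue; open symbols mark the 6 probe sets below the filter and grey lines its level on each array type. Congenic and Dahl S symbols are separated in the first Nr4a3 probe set (44.2 to 107.5 against 9.4 to 17.7) and in the fourth Jun probe set, and Dahl S sample 1 is the top symbol in all 5 Fos probe sets.

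Nr4a3 encodes NOR1, an orphan nuclear receptor of vascular and muscle cells among others, and lies on chromosome 5. Its probe set X86003_at gave 48.6, 107.5 and 44.2 units in congenic samples 1, 2 and 3, against 11.9, 9.4 and 17.7 units in Dahl S samples 1, 2 and 3. Every congenic value was above every Dahl S value, and congenic sample 2 stood well above the other congenic samples. The geometric means were 61.4 units in congenic and 12.6 units in Dahl S kidneys, a ratio of 4.89 and a difference of 2.29 ± 0.53 (SE, n = 3 each). All 3 Dahl S values were below the type A filter level of 21.2 units, where signals are least certain, so the size of the ratio is uncertain too. Leaving out any 1 sample gave 1.88 to 2.54, the lowest without congenic sample 2.

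The other 2 Nr4a3 probe sets were dim and did not show this separation. Probe set rc_AI176710_at read 11.2, 13.3 and 5.3 units in congenic samples 1 to 3, against 20.2, 9.7 and 6.4 units in Dahl S samples 1 to 3, with overlapping strains and a difference of -0.22. In rc_AI145834_at the congenic samples had 15.2, 4.1 and 4.3 units and the Dahl S samples 7.1, 2.1 and 4.0 units, again overlapping, with a difference of 0.54. Averaged over all 3 probe sets the Nr4a3 difference was 0.87. The strain difference of Nr4a3 therefore rests on 1 probe set.

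Its relatives did not share the pattern. Nr4a1, which encodes NUR77 and lies on chromosome 7, had 43.4, 103.1 and 66.3 units of U17254_at in congenic samples 1 to 3, against 110.1, 64.9 and 75.9 units in Dahl S samples 1 to 3. The strains overlapped, with the lowest value in congenic sample 1 and the highest in Dahl S sample 1 (difference -0.29 ± 0.38). U17254_g_at, designed on the same transcript, gave 53.2, 107.6 and 119.4 units in congenic kidneys and 134.6, 80.9 and 19.4 units in Dahl S kidneys (0.56 ± 0.68). That opposite sign turned on Dahl S sample 3, since the difference was -0.24 without it. Over the 6 samples the log2 signals of this pair had a Pearson r of 0.35, given as a description.

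Nr4a2, which encodes NURR1 and lies on chromosome 3, had 21.4, 49.3 and 40.2 units of U01146_s_at in congenic samples 1 to 3, against 43.4, 41.1 and 61.4 units in Dahl S samples 1 to 3. The strains overlapped, congenic sample 1 was lowest, and the difference was -0.46 ± 0.43. Its second probe set, L08595_at, stayed between 4.4 and 6.8 units in congenic and between 4.6 and 7.9 units in Dahl S kidneys, below the filter.

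Fos, on chromosome 6, encodes the AP-1 subunit that is the classic marker of recent cell stimulation. X06769cds_g_at had 214.2, 236.9 and 186.2 units in congenic samples 1 to 3, against 333.6, 176.9 and 180.0 units in Dahl S samples 1 to 3. Dahl S sample 1 was highest, the other 2 Dahl S samples were the lowest of the 6, and the difference was -0.06 ± 0.27. For X03347cds_g_at the congenic values were 154.7, 158.3 and 92.8 units and the Dahl S values 261.1, 104.3 and 132.2 units (-0.22 ± 0.37). On type C, rc_AI176185_at gave 45.3, 39.4 and 52.1 units in congenic samples 1 to 3 and 221.2, 42.9 and 44.3 units in Dahl S samples 1 to 3 (-0.73 ± 0.62).

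All 3 of these Fos probe sets had the same single high sample, and so did both that lay below the filter. The dim X06769cds_at read 9.1, 7.0 and 8.3 units in congenic kidneys, against 94.2, 8.1 and 8.9 units in Dahl S kidneys. In rc_AI072183_at, on type C, congenic kidneys had 17.4, 13.5 and 31.4 units and Dahl S kidneys 114.5, 28.8 and 4.2 units. Over the 5 probe sets, Dahl S sample 1 was 1.41 to 10.35 times the highest of the other 5 samples. Leaving it out turned the sign of 4 of the 5 Fos differences to positive (0.24, 0.16 and 0.06 above the filter, 0.71 below it) and took the other to -0.07. The lower Fos mean of congenic kidneys thus rested on 1 Dahl S sample, seen on 2 array types. Pearson r among the 3 probe sets above the filter was 0.75 to 0.93 over the 6 samples. These values include Dahl S sample 1, the highest in each, and were not computed without it. They are thus no measure of agreement among the other 5 samples.

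Fosl1, on chromosome 1, encodes the FOS relative FRA1, and its only probe set, M19651_at, lay below the filter. It had 9.4, 9.8 and 6.5 units in congenic kidneys and 5.3, 5.1 and 10.7 units in Dahl S kidneys (0.35), with the highest and the lowest value both in Dahl S samples.

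Jun, on chromosome 5, encodes the AP-1 subunit that binds DNA alone or with FOS, and its 4 probe sets did not move together. The brightest, rc_AI175959_at, had 213.3, 228.8 and 348.2 units in congenic samples 1 to 3, against 256.9, 529.2 and 494.0 units in Dahl S samples 1 to 3. Dahl S samples 2 and 3 were highest and Dahl S sample 1 lay among the congenic values, with a difference of -0.66 ± 0.31. The dimmest, rc_AA944014_at, read 5.4, 18.8 and 23.3 units in congenic samples and 26.4, 37.2 and 54.0 units in Dahl S samples, a difference of -1.50 ± 0.69. Here the strains did not overlap, but congenic samples 1 and 2 were below the filter level, and the difference was -0.84 without congenic sample 1.

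The remaining Jun probe sets showed almost no strain difference. X17163cds_s_at had 216.5, 193.3 and 158.3 units in congenic kidneys, against 140.4, 226.3 and 188.4 units in Dahl S kidneys (0.05 ± 0.24). rc_AA945867_at had 76.8, 87.4 and 72.1 units in congenic kidneys, against 53.6, 99.6 and 95.3 units in Dahl S kidneys (-0.02 ± 0.31). In both, Dahl S sample 1 was the lowest of the 6 samples, the reverse of its place in Fos. The log2 signals of the pair correlated at 0.82 and those of rc_AI175959_at and rc_AA944014_at at 0.80, while X17163cds_s_at and rc_AA944014_at gave -0.23, each over the same 6 samples.

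Junb, on chromosome 19, encodes a JUN relative that often restrains JUN. X54686cds_at had 140.4, 198.7 and 131.7 units in congenic samples 1 to 3, against 239.8, 170.9 and 189.4 units in Dahl S samples 1 to 3. Congenic samples 1 and 3 were lowest, congenic sample 2 lay among the Dahl S values, and the difference was -0.36 ± 0.23. rc_AA891041_at gave 103.1, 17.7 and 60.1 units in congenic kidneys and 124.5, 126.8 and 62.6 units in Dahl S kidneys (-1.06 ± 0.62). Congenic sample 2 decided that value, which was -0.34 without it, and the pair of probe sets correlated at -0.07.

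Egr1, on chromosome 18, encodes a zinc finger activator with SRF-driven transcription, and its 4 probe sets gave 2 differences of each sign. AF023087_s_at had 166.9, 278.5 and 321.4 units in congenic samples 1 to 3, against 338.2, 300.2 and 257.0 units in Dahl S samples 1 to 3 (-0.27 ± 0.26). U75398_s_at had 147.8, 136.6 and 114.0 units in congenic kidneys, against 151.4, 103.8 and 87.2 units in Dahl S kidneys (0.25 ± 0.26). Dahl S sample 1 was highest in each, and the strains overlapped. M18416_at had 56.1, 122.2 and 120.8 units in congenic kidneys, against 174.8, 125.9 and 63.7 units in Dahl S kidneys (-0.25 ± 0.45). rc_AI176662_s_at had 34.1, 65.0 and 36.6 units in congenic kidneys, against 80.7, 30.4 and 25.9 units in Dahl S kidneys (0.12 ± 0.52). Again Dahl S sample 1 was highest in both. Pearson r among the 4 Egr1 probe sets ran from -0.19 to 0.87 over the 6 samples.

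Atf3, on chromosome 13, encodes a stress-induced factor that binds cyclic AMP response element type sequences. M63282_at had 68.5, 100.3 and 65.9 units in congenic samples 1 to 3, against 61.9, 82.8 and 88.9 units in Dahl S samples 1 to 3. Congenic sample 2 was highest and Dahl S sample 1 lowest, and the difference was 0.00 ± 0.29.

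**Figure D2:**
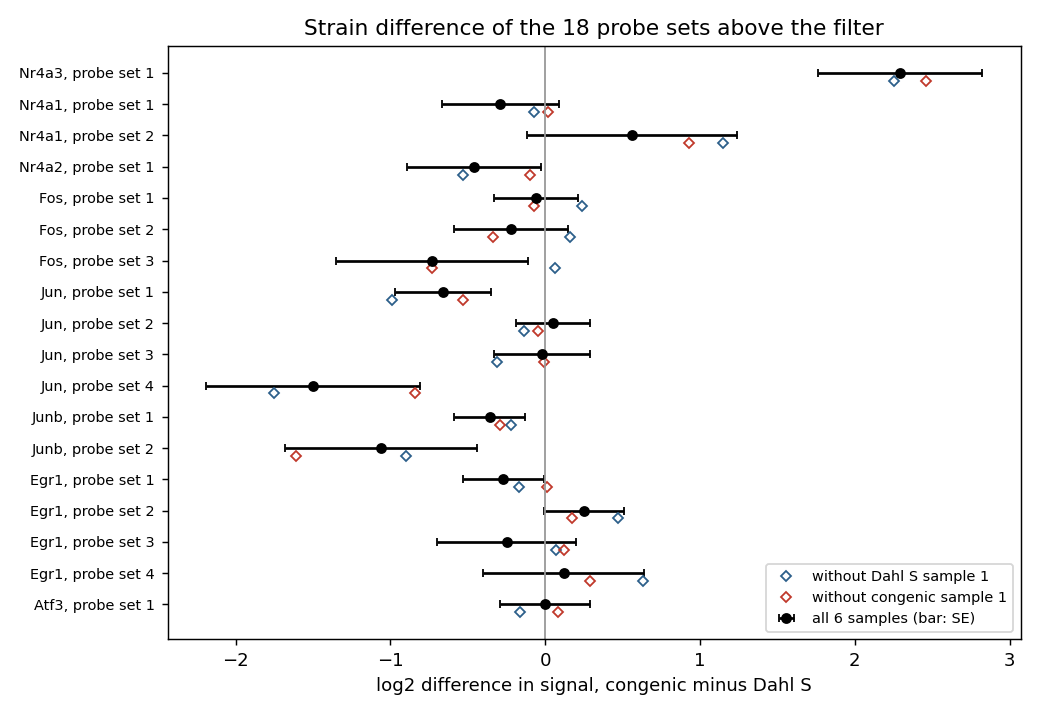
Log2 difference in signal, congenic minus Dahl S, of the 18 member probe sets above the filter (black, bars are ± 1 SE, n = 3 each) and after leaving out Dahl S sample 1 (blue) or congenic sample 1 (red). Nr4a3 stands alone at 2.29, and 3 of 3 Fos points move from below 0 to above 0 without Dahl S sample 1.

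The members also differed between samples of 1 strain. Dahl S sample 1 was the highest of the 6 samples in 10 of the 18 member probe sets above the filter (55.6%), against 16.9% of all 15721. The count over the other samples was 0, 2 and 0 in congenic samples 1 to 3 and 4 and 2 in Dahl S samples 2 and 3. By gene, Dahl S sample 1 was highest in 5 of 5 Fos, 4 of 4 Egr1, 2 of 2 Nr4a1 and 1 of 2 Junb probe sets, filtered ones included. Among these genes it stood furthest apart in Fos, at 1.41 to 10.35 times the highest of the other 5 samples. That ratio was 1.02 to 1.39 in Egr1, 1.07 to 1.13 in Nr4a1 and 0.98 to 1.21 in Junb, so some were near ties. Dahl S sample 1 was highest in 1 of 3 Nr4a3 probe sets, the dim rc_AI176710_at, at 1.52 times the highest of the others. It was so in 0 of 4 Jun, 0 of 2 Nr4a2, 0 of 1 Fosl1 and 0 of 1 Atf3 probe sets. By annotation the 13 of 24 counted here belong to 5 genes, and all 13 belong to 1 sample. They are thus not separate events, and grouping them this way followed from their values.

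Dahl S sample 1 was also 1 of the 2 samples with low beta-actin ratios (mean 0.48, against 1.07 and 1.10 in Dahl S samples 2 and 3). Congenic sample 1 had a mean ratio of 0.50, against 1.07 and 1.35 in congenic samples 2 and 3. This sample was highest in 0 of the 18 probe sets, against 18.5% of all 15721. On rc_AI176185_at, 1 of the 5 Fos probe sets, it had 45.3 units. The other congenic samples had 39.4 to 52.1 units and the other Dahl S samples 42.9 to 44.3 units. On the dim Fos probe set X06769cds_at it had 9.1 units, next to 8.9 units in Dahl S sample 3. It had 214.2 units on X06769cds_g_at, 154.7 on X03347cds_g_at and 17.4 on rc_AI072183_at. Each of these lay within the range of the samples other than Dahl S sample 1. The part of RNA quality in the member differences was not tested. Without Dahl S sample 1, 10 of the 18 probe sets were lower in congenic kidneys. Without congenic sample 1 the count was also 10, and without both samples numbered 1 it was 8.

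**Figure D3:**
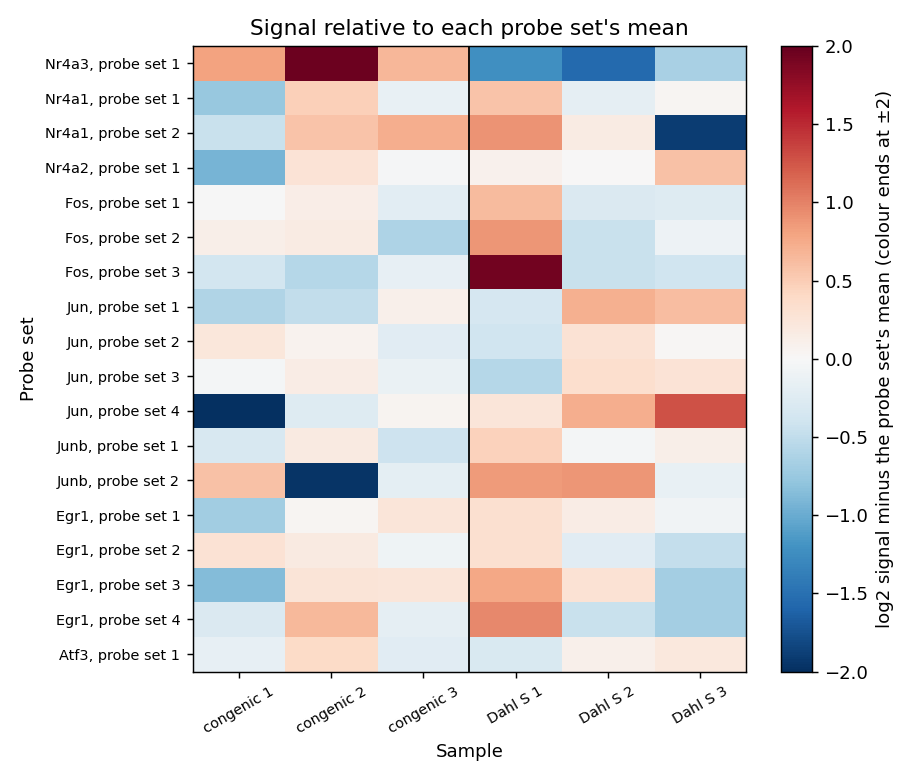
Log2 signal of each member probe set above the filter minus its mean over the 6 samples, with congenic samples left of the line and Dahl S samples right of it; the colour scale ends at 2 in each direction. Dahl S sample 1 is red across the Fos, Nr4a1, Junb and Egr1 probe sets, and the Nr4a3 line is red in all 3 congenic and blue in all 3 Dahl S samples.

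Genes around these factors were read from 4 lists: other immediate early genes, upstream kinases and activators, partners and feedback inhibitors, and reported target genes. Together they held 177 genes, of which 148 were on the arrays and 124 above the filter. Of the 124, 52 were higher and 72 lower in congenic kidneys, and limma called 0 after adjustment over all probe sets (smallest adjusted p = 0.9997). An unadjusted p under 0.05 was found for 5 of the 124, and for 2.49% of all 15721 probe sets. The strains did not overlap in 12 of the 124 (9.68%), against 7.62% of all 8168 genes. Among the 124, 58.1% were lower in congenic kidneys, against 51.1% of all genes (median -0.01).

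Other immediate early genes, 32 of 42 above the filter, split into 13 higher and 19 lower (median -0.08), with 0 called, 2 at an unadjusted p under 0.05 and 4 without overlap (12.5%, against 7.62% of all genes). The 3 with the smallest unadjusted p, none of which passed, were lower in congenic kidneys. Irf1, an interferon-response factor, had 98.5, 115.4 and 109.6 units in congenic samples, against 126.5, 202.8 and 156.9 units in Dahl S samples (-0.56 ± 0.24, adjusted p = 0.9997 by limma). Gadd45b, a stress sensor that feeds p38 and JNK kinases, had 8.5, 52.5 and 26.8 units in congenic samples and 74.4, 66.3 and 84.7 units in Dahl S samples (-1.71 ± 0.74), with congenic samples 1 and 3 under the type B filter level of 39.3. Pim1, a survival kinase, had 224.4, 80.0 and 100.4 units in congenic samples and 305.3, 198.5 and 194.2 units in Dahl S samples (-0.90 ± 0.40). The strains overlapped in Pim1 and not in Irf1 or Gadd45b. Jund, Egr2, Egr3, Klf10 and Ptgs2 lay below the filter.

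In this list Dahl S sample 1 was highest in 8 of 32 genes (25%), against 15.9% of all 8168 genes. Bcl6, a repressor, had 97.5 units there, against 39.0 to 53.0 units in the other 5 samples. Ier2, an early growth-response gene, had 162.4 units there, against 109.0 to 139.2 units in the others. These 2 were picked after their values were seen. In the lists of upstream factors, partners and targets the count was 2 of 33 (6.06%), 2 of 29 (6.90%) and 2 of 30 (6.67%).

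Upstream kinases and activators, 33 of 55 above the filter, were 16 higher and 17 lower (median -0.06), with 0 called and 0 at an unadjusted p under 0.05. The strains did not overlap in 1 (3.03%, against 7.62% of all genes). Crtc2, a CREB coactivator, came nearest with 12.9, 76.2 and 38.4 units in congenic samples, against 94.3, 86.4 and 59.7 units in Dahl S samples (-1.23 ± 0.62). The strains overlapped, and congenic sample 1 was far the lowest. Map2k6, a kinase of p38, differed by 0.61 ± 0.36 and Srf, the CArG box factor, by -0.64 ± 0.39, both with overlapping strains.

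Partners and feedback inhibitors, 29 of 40 above the filter, were 11 higher and 18 lower (median -0.07), with 0 called and 0 at an unadjusted p under 0.05. The strains did not overlap in 2 (6.90%, against 7.62% of all genes). The 3 nearest were Spry4, an inhibitor of growth factor signalling, at -0.48 ± 0.29, Zfp36l2, an RNA-decay factor, at -0.37 ± 0.24, and Dusp1 at -0.81 ± 0.52. Dusp1, the immediate early phosphatase that switches off MAP kinases, had 114.7, 48.7 and 74.6 units in congenic samples 1 to 3, against 269.8, 127.9 and 65.5 units in Dahl S samples 1 to 3. The strains overlapped, and Dahl S sample 1 was 2.11 times the highest of the others, as it was the highest sample for Fos and Egr1.

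Reported target genes, 30 of 40 above the filter, were 12 higher and 18 lower (median -0.09), with 0 called, 3 at an unadjusted p under 0.05 and 5 without overlap (16.7%, against 7.62% of all genes). Spp1, the osteopontin gene, had 1284.9, 1199.6 and 1807.7 units in congenic samples, against 2485.2, 3747.4 and 2618.3 units in Dahl S samples (-1.04 ± 0.21, adjusted p = 0.9997 by limma). Ccn2, a matrix-associated growth factor, had 46.3, 56.2 and 69.6 units in congenic samples, against 175.6, 179.4 and 95.5 units in Dahl S samples (-1.35 ± 0.40). Odc1, which starts polyamine synthesis, had 1404.4, 1345.8 and 1645.2 units in congenic samples and 1080.7, 964.0 and 1329.3 units in Dahl S samples (0.39 ± 0.16). The strains did not overlap in any of the 3, and none passed after adjustment.

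**Figure D4:**
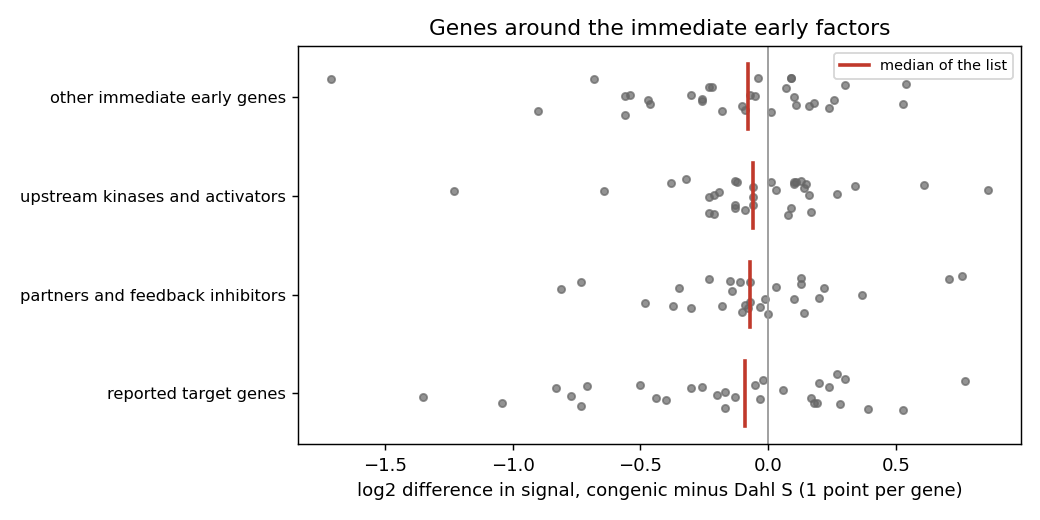
Log2 difference in signal, congenic minus Dahl S, of the 124 genes of the 4 lists above the filter, 1 point per gene, with each list's median as a red line. The medians lie between -0.09 and -0.06, and points fall on both sides of 0 in every list.

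Marker genes of other cell types are given beside these values, and limma called 0 of them (smallest adjusted p = 0.9997). Their sums weigh bright probe sets most. The 10 leukocyte markers above the filter, 9 of them lower in congenic kidneys, summed to 3609.5 to 3844.0 units in congenic and 4170.7 to 5228.3 units in Dahl S samples, and Ptprc, Cd8a, Itgam and Cd53 lay below the filter. The 11 smooth muscle and stroma markers, 9 of them lower, summed to 2947.6 to 3439.0 units in congenic and 4142.6 to 4653.9 units in Dahl S samples, with Cnn1 and Des below the filter. The 8 endothelial markers overlapped, at 2578.9 to 2982.4 units in congenic and 2285.4 to 2798.1 units in Dahl S samples. The 12 kidney markers, 10 of them higher, summed to 42592.4 to 50763.1 units in congenic and 42237.5 to 43759.8 units in Dahl S samples, which overlapped. The 6 blood cell markers, 5 of them lower (median -0.44), summed to 10112.7 to 19132.2 units in congenic samples, against 12584.8, 14905.3 and 52231.3 units in Dahl S samples 1 to 3, so Dahl S sample 3 stood far apart. The part of these cell types in the differences of Nr4a3, Nr4a1, Jun, Spp1 and Ccn2 was not tested, and in whole kidney fewer cells of a type and less RNA per cell cannot be told apart.

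The 5 genes whose log2 signal followed the Nr4a3 probe set X86003_at most closely over the 6 samples were Gabbr2 (Pearson r 0.984, Spearman rho 1), Lig4 (0.982 and 0.886), Plg (0.972 and 0.943), C19h1orf131 (0.957 and 0.886) and Cpd (0.956 and 0.886). They are a description, as both strains enter the correlation and a gene with a strain difference ranks high by it. Gabbr2, a GABA-B receptor subunit gene that like Nr4a3 lies on chromosome 5, had 56.7, 82.7 and 42.0 units in congenic samples 1 to 3, against 23.0, 22.4 and 27.1 units in Dahl S samples 1 to 3 (1.27 ± 0.40). Plg, the plasminogen gene, had 63.2, 97.0 and 51.2 units in congenic samples and 21.9, 27.1 and 28.4 units in Dahl S samples (1.41 ± 0.44). All 3 Dahl S values of Plg were below the type C filter level of 37.7 units, so its size is uncertain. In both, as in Nr4a3, the strains did not overlap and congenic sample 2 was highest. Members were no candidates for the 5, and the r of Nr4a3 with Nr4a1 (U17254_at) was -0.07 and with Nr4a2 -0.21.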

How the data were processed

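Strain and sample number were read from titles, and tags in the labels linked each sample's arrays. Per the files, the authors deposited 1 linear intensity per probe set, already scaled to nearly equal trimmed means (2% off each end). Their software and genome build were not given in the sources used here. Values below the 10th percentile of their array type were raised to it (3.1, 6.8 and 4.9 units on types A, B and C), log2 was taken, and control probe sets were left out. Probe sets under the 40th percentile of mean log2 signal (21.2, 39.3 and 37.7 units) were not tested. Symbols were those of the platform annotation (1 symbol for 18178 probe sets, several for 391, none for 7633), of which 18122 matched GRCr8 by gene ID. The strain contrast was fitted in limma 3.58.1 under R 4.3.3 (lmFit, eBayes with trend), with Benjamini-Hochberg adjustment over all types at 0.05. The fit was tested on simulated data.

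The text names all members, of each list the genes past the threshold or else the 3 with the smallest unadjusted p, and the 5 genes most like Nr4a3. Bcl6, Ier2, Pfkfb3 and Pdgfb fall outside this rule and were picked after their values were seen. Members and lists were chosen with earlier results of these data known. With 3 samples per strain, precision is limited by their number. Alternatives covered floor, filter, normalization, variance model, adjustment, threshold, probe set choice, pairing and left-out samples.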

Additional observations from a re-analysis of the deposited data

How the results depend on the processing

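Limma called 0 probe sets and 0 genes of the 4 lists under each of the 18 alternatives that give a call count, which leave out both means over probe sets. The Nr4a3 difference was positive under each of the 18 that give a difference, which leave out the alternative threshold and adjustment. It was 2.23 with quantile normalization, 2.31 with median scaling, 1.88 to 2.54 with each sample left out in turn and 2.42 without both samples numbered 1, but 0.87 as the mean over all of its probe sets, an alternative chosen after seeing the data. The count of members lower in congenic kidneys, 7, ran from 4 to 7 with each sample left out, with 4 without congenic sample 1 and 4 without both samples numbered 1. The count of members without overlap, by the brightest probe set of each of 8 genes, was 1 with all samples. Over all genes it was 622 of 8168 (7.62%). The member count ran from 1 to 3 with each sample left out (3 without congenic sample 2, 2 without congenic sample 3, 3 without Dahl S sample 1). Without both samples numbered 1, where fewer values have to be separated, it was 3. With samples left out, the share over all features was counted by probe set and not by gene. Over all 15721 probe sets that count was 1113 with all samples. That rose to 2363 to 2822 with each sample left out and to 4702 without both samples numbered 1. Nothing is read from the rise among members. Sample numbers are shared between strains. Same-numbered samples deviated together by a correlation of 0.45, 0.077 and 0.182 for numbers 1, 2 and 3. Samples of different number gave -0.299 to 0.147, so the samples numbered 1 stood apart. The main fit did not take sample numbers as pairs and so does not remove an effect they share. With the sample number as a replicate block the Nr4a3 difference was 2.29 and 0 probe sets were called. In that fit 819 had an unadjusted p under 0.05, against 391 in the main fit. For the brightest probe set of each gene or its mean over probe sets, the sign changed for some members. Fos ran from -0.52 to 0.24, Egr1 from -0.46 to 0.11, Nr4a1 from -0.60 to 0.24 and Atf3 from -0.20 to 0.11, while Jun (-0.99 to -0.47), Junb (-0.71 to -0.15) and Nr4a2 (-0.71 to -0.10) were negative throughout. Other Jun probe sets were not: X17163cds_s_at was at 0.05 with all samples, and rc_AA945867_at was at 0.14 without Dahl S sample 2. List medians lay between -0.21 and 0.08. Signal over background limits the dim probe sets, among them the Dahl S values of Nr4a3.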

Other observations

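Of the reported target genes, Pfkfb3, a regulator of glycolysis, had 52.7 units in Dahl S sample 1, against at most 31.9 units in the other 5 samples. Pdgfb, a platelet-derived growth factor gene, had 85.9 units there and 70.7 units in congenic sample 1, and the other samples lay far lower. Pdgfb was thus high in the samples numbered 1 of each strain, and not in Dahl S sample 1 alone. Pfkfb3 and Pdgfb were picked after their values were seen. Dahl S sample 1 was highest in only 2 of the 30 target genes above the filter (6.67%), against 15.9% of all genes.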
